A study of Bos taurus with 129 samples.

Results

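Blood RNA from 7 beef steers labelled as diseased with bovine respiratory disease (BRD), sampled on day 0, was compared between 2 trace mineral programs. The members were every day 0 library of a steer labelled disease Yes in the AAC group (4 animals, numbered 9, 21, 31 and 41) or the COMBO group (3 animals, numbered 16, 18 and 54), which made 7 of the 70 diseased and 59 healthy libraries of the series. In the AAC group copper, cobalt, manganese and zinc were fed as amino acid complexes. The COMBO steers received the same complexed feed source and in addition an oral drench of trace minerals with vitamin E before shipment, at enrolment on day 0 and with any later treatment for illness. All animals had been bought as high-risk crossbred steers and transported over a long distance, and all received a vaccine against respiratory viruses and doramectin, a dewormer, around day 0. The order of the day 0 drench, vaccine and blood draw and the date on which each steer was diagnosed were not given in the sources used here, so day 0 is the label and not a known stage of disease. Pens were nested in the programs: AAC steers 21 and 31 came from pen 2, AAC steers 9 and 41 from pen 8, and all 3 COMBO steers from pen 6. Treatment and pen therefore cannot be told apart in any AAC and COMBO difference below. Steers entered their pens and feeds at enrolment on day 0, so at that day the program names mark assigned groups rather than a period of feeding. The paper did not count day 0 differences among its healthy cattle as supplementation. The 7 diseased day 0 steers fed inorganic sulfate minerals (INR) and the 4 healthy AAC and 4 healthy COMBO steers of day 0 served for reference.

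BRD is an infection of the airways and lungs of cattle by viruses and bacteria, most frequent in the weeks after transport and mixing. Blood carries a mixture of neutrophils, monocytes, lymphocytes, platelets and red cells, and its RNA changes both with the share of each cell type and with gene activity inside the cells. Viral infection or a live vaccine induces type I interferons, which switch on a broad set of antiviral genes in all blood cells, while B cells carry the antigen receptor and mature into antibody-secreting plasma cells. Zinc, copper, cobalt (as cobalamin) and selenium each have their own transporters, carriers and enzymes, and the genes for these were followed as separate lists.

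The 7 libraries held 40199190 to 46714639 counts and the other diseased libraries 34928094 to 61692136, so depth was similar in both groups. Defining markers of whole blood were present in all 7 animals. The summed level of the 5 neutrophil markers found in the file was 1520 to 3011 CPM (read counts scaled to a common library size) in AAC and 1514 to 2023 in COMBO, that of the 6 T cell markers 876 to 1481 and 788 to 1056, and none of the 4 connective tissue markers was detected in all 7 libraries. The 4 connective tissue markers summed to 0.31 to 41.99 CPM in AAC and 0 to 7.75 in COMBO. The 4 monocyte markers summed to 658 to 1715 CPM in AAC and 398 to 639 in COMBO, the 5 B cell markers to 868 to 1342 and 2018 to 3189, and the 4 red cell markers to 108.6 to 2540 and 41.7 to 147. In RNA from whole blood, fewer cells of a type and less RNA per cell cannot be told apart.

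Before any gene was considered, 3 of the 7 libraries stood apart from the rest. On the first principal component of the 14 diseased day 0 libraries, COMBO animals 18 and 54 scored -99.6 and -93.6 and AAC animal 21 scored 135. COMBO animal 16 scored 11.1, inside the INR range of -47.3 to 47.9 and next to AAC animal 41 at 13.1. AAC animal 31 scored 60.8, and AAC animal 9 lay between it and animal 41. The median absolute log2 deviation from each gene's median over the 14 libraries was 0.302 in animal 18, 0.275 in animal 54 and 0.361 in animal 21, against 0.145 to 0.22 in the others. The COMBO group at day 0 thus consisted of 2 animals close to each other and 1 animal that lay among the INR and AAC steers.

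**Figure D1:**
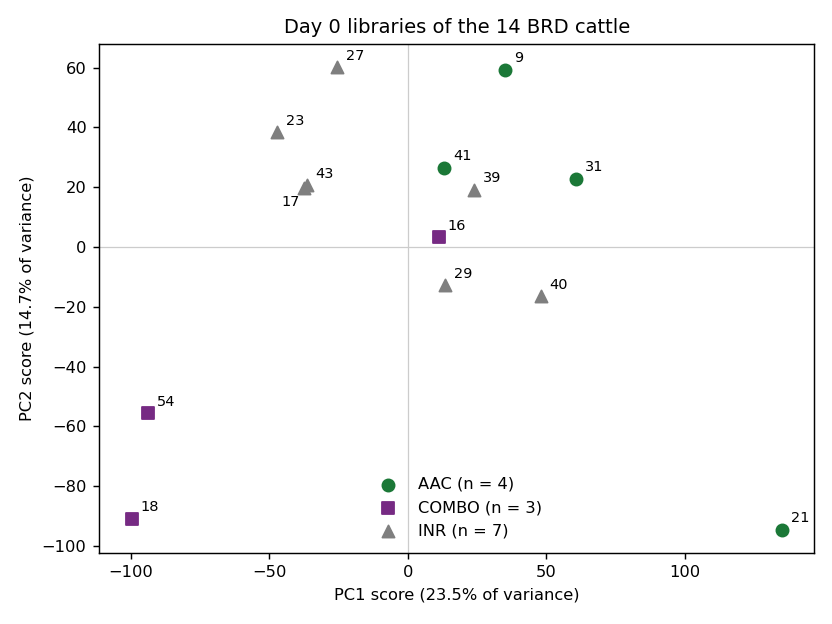
Scores of the 14 diseased day 0 libraries on the first 2 principal components of log2 CPM, with the percent of variance on each axis and each point labelled with its animal number. COMBO animals 18 and 54 lie at the far left at -99.6 and -93.6, AAC animal 21 at the far right at 135, and COMBO animal 16 at 11.1 among the INR and AAC animals.

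Of 18477 genes tested with edgeR, 2382 differed between AAC and COMBO at a false discovery rate (FDR) below 0.10, which is 12.9% of the genes tested. Of these, 974 (5.27%) were higher in AAC and 1408 (7.62%) were lower. The median absolute difference of the called genes was 0.75 on the log2 scale, while the median signed difference over all tested genes was 0.02. For 1373 of the 2382 called genes the 4 AAC and 3 COMBO values did not overlap, and over all tested genes 2808 (15.2%) did not overlap. COMBO animal 16 lay within the AAC range for 903 of the called genes. Animals 18 and 54 both lay beyond all 12 other diseased steers, on the same side, for 1380 called genes (57.9%), compared with 15% of all tested genes. The called genes were chosen for a difference that includes both animals, so the larger share among them is no independent support. Relative to the INR steers, the AAC mean lay within the INR range for 54.3% of called genes and the COMBO mean for 45.3%. These shares and the count of 903 were not taken over all tested genes, so they are not read as particular to called genes.

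The count of called genes depended on which animals and libraries entered the fit. Without animal 18 it was 275 and without animal 54 it was 641, whereas without animal 16 it increased to 3590. Leaving out AAC animal 21 gave 1091 calls, animal 31 gave 1450, animal 9 gave 1563 and animal 41 gave 2342. When animals 18 and 54 were both left out, so that animal 16 stood alone and its spread was taken from the other groups, 25 genes were called and 11 of them were among the 2382, although 2169 of the 2382 kept their sign. The 2382 genes had been chosen with animal 16 and the same AAC animals in the comparison, so their kept signs are no independent support. The spread behind the 2382 calls came from all 70 libraries of diseased steers over 5 days. With the 7 libraries fitted alone, 3 genes passed, and 2941 had an unadjusted p below 0.05. These 3 are named although they were picked after their values were seen. POU2AF1, the B cell transcription coactivator, had 92.45, 112.9 and 117.4 CPM in AAC animals 21, 31 and 41, a little more in animal 9, and 253 to 259 in COMBO. PPM1E, a protein phosphatase, had 3.31 to 4.61 CPM in AAC and 13.1 to 14.7 in COMBO. SGK1, a kinase induced by glucocorticoids and osmotic stress, went the other way, with 98.9 to 113.8 CPM in AAC and 52.7 to 57.7 in COMBO. SGK1 was not among the 2382 genes (FDR 0.13 in edgeR).

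**Figure D2:**
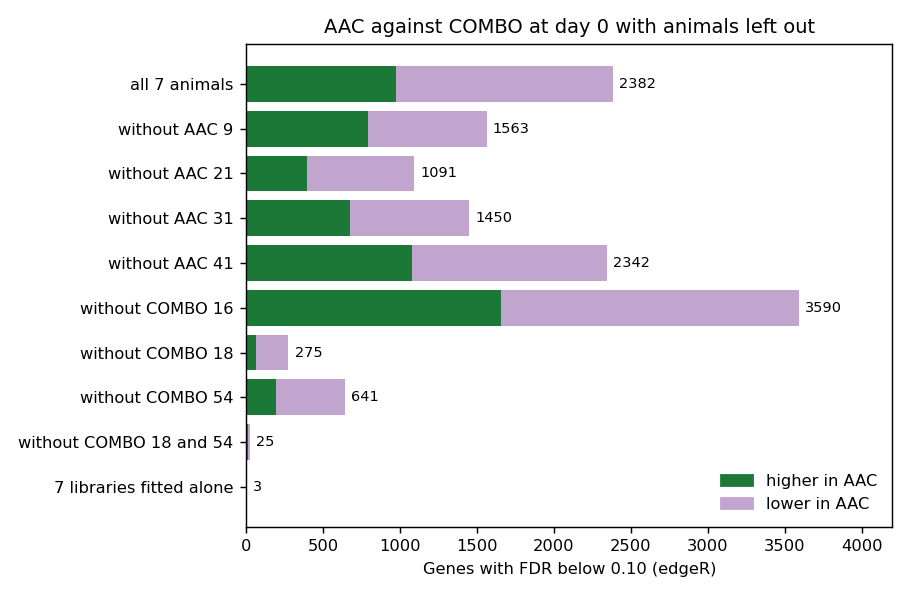
Number of genes with an FDR below 0.10 (edgeR) for AAC against COMBO at day 0, as horizontal bars from 0 split into genes higher and lower in AAC, for all 7 animals, with each animal left out, without animals 18 and 54, and for the 7 libraries fitted alone. The bars run from 3590 genes without COMBO animal 16 down to 25 without animals 18 and 54 and 3 for the 7 libraries alone.

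The 12 genes of smallest p lower in AAC and the 12 of smallest p higher in AAC were chosen by a fixed rule and are given with their known roles. TCOF1, the first of those lower in AAC, whose product treacle drives transcription of ribosomal RNA genes, had 74.1, 84.7, 79.9 and 94.7 CPM in AAC animals 9, 21, 31 and 41 and 95.6, 211 and 213 CPM in COMBO animals 16, 18 and 54. The groups were apart, but animal 16 barely exceeded the highest AAC animal, while animals 18 and 54 had more than any INR steer (lowest 102.9 and median 112.5 CPM). The difference was -1.05 on the log2 scale (SE 0.15, FDR 4.608e-05 in edgeR). RPF2, an assembly factor of the large ribosomal subunit, had 18.04 to 20.7 CPM in AAC and 25.2, 46.5 and 44.5 in COMBO (log2 difference -1.02, SE 0.15). The pre-ribosome factors NOL6 and PWP2 had 20.38 to 30.93 and 20.2 to 23.3 CPM in AAC against 38.9 to 81.8 and at least 27.4 CPM in COMBO, again with animal 16 lowest of the COMBO animals. KAT2A, a histone acetyltransferase, had 39.96 to 59.9 CPM in AAC. In COMBO, animal 16 was within the AAC range, with 135.6 and 128.3 CPM in animals 18 and 54.

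Histone transcripts were also among the lowest p-values. HIST1H1D, a linker histone, had 7.12 to 9.71 CPM in AAC, 12.2 in COMBO animal 16, 113.9 in animal 18 and 43.6 in animal 54, a log2 difference of -2.78 (SE 0.45). H4 and HIST1H2BD, core histones, had log2 differences of -3.17 and -2.28 with the same order of the 3 COMBO animals. Histone genes have many near-identical copies, and these values are uncertain because reads can be divided among copies. Of the rest of these 12 genes, CRTC1, a coactivator of CREB, differed by -0.81. STS, steroid sulfatase, had 0.95 to 1.63 CPM in AAC and 3.13, 4.35 and 6.54 in COMBO, all 3 COMBO animals above the INR maximum of 2.43. XKRX, a membrane protein of the XK family, had 5.06 to 11.34 CPM in AAC and 21.9, 23.7 and 29.4 in COMBO, so that for this gene animal 16 lay beside the other COMBO steers. The last of the 12, FCRL1, an Fc receptor homolog of B cells, is described with its cell type.

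Of the 12 genes of smallest p higher in AAC, COL7A1, the collagen of anchoring fibrils, had 4.24, 6.58, 5.89 and 4.36 CPM in AAC and 2.16, 0.65 and 1.19 CPM in COMBO. The groups did not overlap and the log2 difference was 1.98 (SE 0.32, FDR 0.0002081 in edgeR). ND5, a mitochondrially encoded subunit of complex I, had 471 to 664 CPM in AAC, 437 in COMBO animal 16 and 194 and 184 in animals 18 and 54. The AAC values of ND5 sat within the INR range of 452 to 677 CPM, and animals 18 and 54 were far under it. SLC25A10, the mitochondrial dicarboxylate carrier, had 27.9 to 52.99 CPM in AAC and 29.8, 12.9 and 9.72 in COMBO, where animal 16 overlapped AAC. NPHP4, a cilium protein, had 6.99 to 9.71 CPM in AAC and 3.58 to 4.88 in COMBO, with all 3 COMBO animals under the INR range of 7.15 to 8.43. CSAD, an enzyme of taurine synthesis, had 15.4 to 20.01 CPM in AAC and 10.6 to 11.34 in COMBO, again with all 3 COMBO animals below INR (12.2 to 15.5) and close together. CYB5A, cytochrome b5, had 19.2 to 29.97 CPM in AAC and 14.2, 9.74 and 10.19 in COMBO. TNFSF12, the cytokine TWEAK, differed by 1.56 (SE 0.32) and SELENBP1, a selenium-binding protein, by 2.51 (SE 0.52), the latter at 0.76 to 4.57 CPM in AAC and 0.18 to 0.81 in COMBO. The remaining 4 were LAPTM4B, a lysosomal membrane protein (log2 difference 1.98), DPP7, a lysosomal peptidase (0.95), AP2A1, a clathrin adaptor subunit (0.70), and MPV17, a mitochondrial inner membrane protein (0.64).

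**Figure D3:**
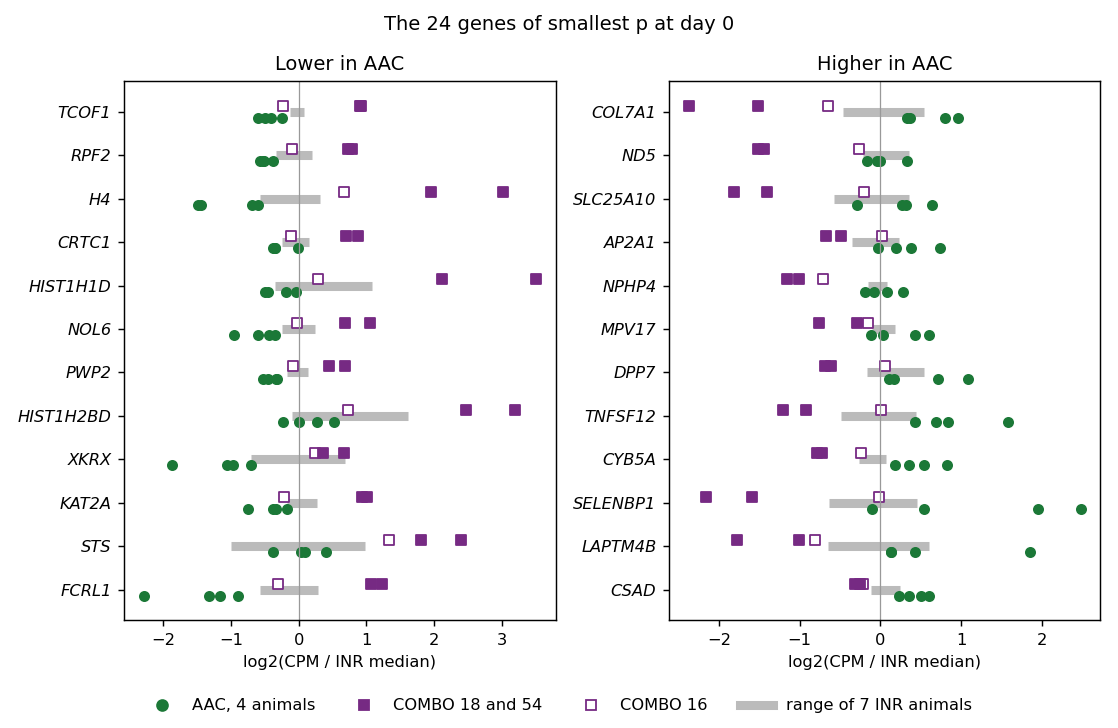
The 12 genes of smallest p lower in AAC (left) and the 12 higher in AAC (right), as log2 of CPM over the median of the 7 INR steers, with AAC as circles, COMBO animals 18 and 54 as filled squares, COMBO animal 16 as an open square and the INR range as a gray bar. The open square lies between the circles and the filled squares for most genes, and for CSAD and XKRX it lies with the filled squares.

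The type I interferon-stimulated genes, which carry out antiviral defense, were much higher in COMBO animals 18 and 54 than in the AAC steers. Of the 30 measured, 23 were lower in AAC, none was higher, and the median log2 difference was -2.09 (0.02 over all tested genes, of which 7.62% were lower). Their summed level was 3369, 4315, 6597 and 8554 CPM in AAC animals 9, 21, 31 and 41. In COMBO it was 4398 CPM in animal 16, 38910 in animal 18 and 31900 in animal 54. Animal 16 was thus within the AAC range, and 2 INR steers, animals 23 and 43, had 18770 and 23970 CPM in an INR range that began at 3106. Over all tested genes the groups did not overlap for 15.2%. Of the 30 genes they did not overlap for 1, OAS1X, which is named after its values were seen. It did not pass (FDR 0.66) and had 0.13 to 0.34 CPM in AAC and 0.42 to 0.52 in COMBO.

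IFI44L, an interferon-induced cytoplasmic protein, had 66.02, 75.1, 83.3 and 192 CPM in AAC and 85.9, 1345 and 1165 in COMBO (log2 difference -3.06, SE 0.80). EPSTI1, an interferon-induced protein of macrophages, had 98.9 to 220 CPM in AAC and 141, 729 and 621 in COMBO (-1.84, SE 0.45). RTP4, a chaperone of receptors that restrains flaviviruses, differed by -3.23 (SE 0.84), and USP18, which removes ISG15 from proteins and dampens interferon signaling, by -2.18 (SE 0.59). In each of these 4 genes animal 16 lay within the AAC range and animals 18 and 54 above every AAC animal. MX1 and ISG15, the best known members and added here after their values were seen, differed by -2.50 and -3.36, with 5392 and 3221 CPM of MX1 in animals 18 and 54 against 579 in animal 16.

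In the interferon-gamma list, 3 of 17 genes were lower in AAC, with a list median of -0.52, beside 7.62% of all tested genes that were lower. CXCL10, a chemokine that attracts activated T cells, had 6.08 to 9.94 CPM in AAC, 5.33 in COMBO animal 16 and 186 and 142 in animals 18 and 54 (log2 difference -3.80, SE 0.80, FDR 0.002573 in edgeR). GBP5 and GBP4, guanylate-binding proteins of cell-autonomous defense, differed by -2.34 and -2.21, and GBP4 is uncertain because it belongs to a family of near-identical copies. Without animals 18 and 54 none of the 30 type I genes and none of the 17 interferon-gamma genes passed, the medians were 0.43 and 0.31, and IFI44L, RTP4, USP18, CXCL10, GBP5 and GBP4 changed sign. The 23 calls were 1 without animal 18, 6 without animal 54, 7 without AAC animal 21, 8 without AAC animal 9 and 14 without AAC animal 31. In limma with a correlation within animals, 9 were called.

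**Figure D4:**
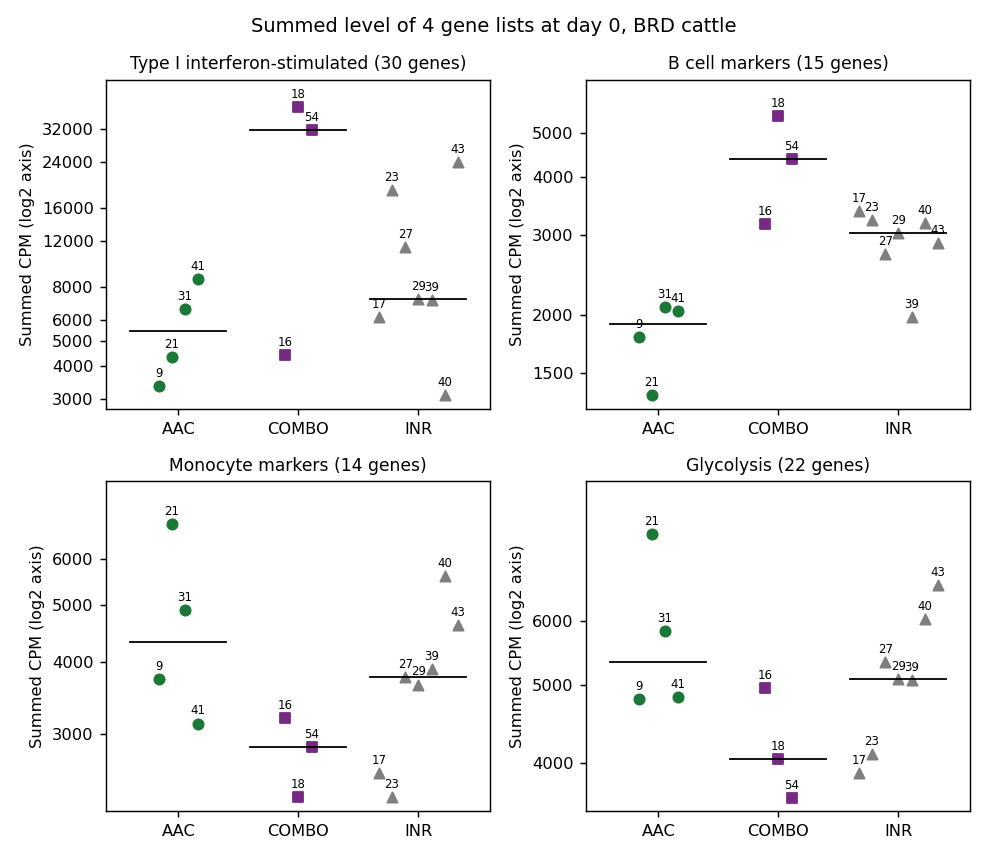
Summed CPM of 4 gene lists in each of the 14 diseased steers at day 0, on log2 axes, by group, with animal numbers and a line at each group's median. For interferon-stimulated genes COMBO animals 18 and 54 lie highest (38910 and 31900 CPM), while for B cell markers all 3 COMBO animals (3166 to 5437) exceed all 4 AAC animals (1340 to 2087).

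B cell genes separated all 3 COMBO animals from all 4 AAC animals. Of 15 B cell markers, 14 were lower in AAC, with a list median of -1.40, and the same 14 did not overlap between the groups. Over all tested genes 7.62% were lower and 15.2% did not overlap. The summed level was 1791, 1340, 2087 and 2049 CPM in AAC and 3166, 5437 and 4384 CPM in COMBO, with 1981 to 3372 CPM (median 3022) in INR. AAC animals 9 and 21 were below the lowest INR steer, and COMBO animals 18 and 54 were above the highest. The exception among the 15 was BLK, a kinase that gamma-delta T cells also express, at 81.68 to 193 CPM in AAC and 94.6 to 145 in COMBO.

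CD22, an inhibitory coreceptor of the B cell receptor, had 21.3, 9.66, 10.4 and 25.7 CPM in AAC and 76.2, 76.3 and 73.4 CPM in COMBO. The COMBO animals were nearly equal and above the INR maximum of 66.9 CPM, and the log2 difference was -2.16 (SE 0.39, FDR 0.0007377 in edgeR). FCRL1 had 34.5, 17.7, 46.6 and 38.8 CPM in AAC and 70.3, 203 and 181 in COMBO (-2.14, SE 0.38). The transcription factors EBF1, which commits cells to the B lineage, and SPIB, which sustains receptor signaling, differed by -1.70 (SE 0.33) and -1.85 (SE 0.41). POU2AF1, counted in the list of plasma cell and antibody secretion genes, was the only call of the 12 measured there (-1.20, SE 0.26), and JCHAIN, which links secreted antibody units, had 284 to 939 CPM in AAC and 481 to 1096 in COMBO without passing (FDR 0.60). Of 15 class II antigen presentation genes only BOLA-DOA passed, at 86.8 to 135 CPM in AAC and 179 to 260 in COMBO. It encodes a subunit of the peptide-loading modulator of B cells and is uncertain because class II genes resemble each other. Beside the plasma cell and class II counts stands the 12.9% of all tested genes that were called.

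Without animals 18 and 54 the median of the B cell list was -0.93, and CD22 alone of the 15 passed (log2 difference -2.18, FDR 0.09866 in edgeR). With single animals left out, 5 genes were called without animal 18 and 12 to 14 in the other fits. The summed CPM of animal 16, 3166, remained above each AAC animal but lay within the INR range.

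Genes of monocytes and granulocytes were on the opposite side, with AAC animal 21 highest. Of 14 monocyte markers 4 were higher in AAC and none lower (list median 0.75, with 5.27% of all tested genes higher). CD163, the scavenger receptor for hemoglobin, had 145, 667, 275 and 136 CPM in AAC and 91.28, 66.7 and 123.8 in COMBO (log2 difference 1.70, SE 0.54). MS4A7, CSF1R (the receptor of macrophage colony-stimulating factor) and LGALS3 (galectin-3) differed by 1.36, 0.77 and 0.82, and in all 4 the groups did not overlap. Over all 2382 called genes the groups did not overlap for 1373. CD14, the lipopolysaccharide coreceptor, had 107.6 to 209 CPM in AAC and 65.1 to 118.8 in COMBO and did not pass (FDR 0.17). Without animal 21 a single gene of the list passed, and without animal 18, without animal 54 or without both none did.

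Among 14 neutrophil granule genes LYZ and ARG1 were higher in AAC (list median 0.90, with 5.27% of all tested genes higher). LYZ, lysozyme, had 4003, 6975, 2961 and 2671 CPM in AAC and 2123, 780 and 637 in COMBO, groups that did not overlap, although cattle carry several lysozyme genes and the value is uncertain. ARG1, arginase, had 14.1 CPM in AAC animal 9 and 0.42 to 1.66 in the other AAC animals, with 0.18 to 0.59 in COMBO, so its log2 difference of 3.32 (SE 1.18) lay mainly in 1 animal. Of 13 alarmin and chemotaxis genes, the integrin ITGB2 (0.54) and the calprotectin subunit S100A8 (1.20) were called. MCEMP1, a mast cell and myeloid surface protein in the list of cytokine STAT targets, had 68.3 to 187 CPM in AAC and 22.2 to 47.2 in COMBO (1.60, SE 0.40), and it did not pass without animal 18 (FDR 0.17 in edgeR). Without animal 18 or without animal 54 no granule or alarmin gene passed, and without AAC animal 21 no alarmin gene did. The granule list had 1 call without AAC animal 9 and 1 in limma with a correlation within animals, and its median was 0.38 without AAC animal 21 and 0 without animals 18 and 54. Of 4 measured cathelicidins none passed, and CATHL5, the one of smallest p and of a family with similar copies, was at 0 in all COMBO libraries and at most 0.17 CPM in AAC.

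Iron genes included 4 calls of 18, all higher in AAC (list median 0.55, with 5.27% of all tested genes higher). SLC11A1, the phagosomal iron and manganese exporter of macrophages also known as NRAMP1, had 83.3, 279, 192 and 87.03 CPM in AAC and 28.4 (animal 16) to 51.3 (animal 18) in COMBO (log2 difference 2.05, SE 0.50, FDR 0.008052 in edgeR). Animal 16 was the lowest of all 7 for this gene, and without animals 18 and 54 the difference was 2.50 but did not pass (FDR 0.69). BLVRA, biliverdin reductase, and ACO1, the cytosolic aconitase that doubles as an iron sensor, differed by 1.08 and 0.83, and CD163 was the 4th. Red cell genes varied within AAC: HBA1, alpha globin, had 4374 CPM in AAC animal 9 but 48.4 to 379 in the other AAC animals and 62.18 CPM ± 59.1 (SD, n = 3) in COMBO. It passed (FDR 0.098), as did GYPB, a glycophorin (FDR 0.093), both among 28 erythroid genes, and HBA1 is uncertain because globin copies are near-identical. Neither passed in limma with a correlation within animals (FDR 0.19 for HBA1 and 0.35 for GYPB), and none of the 28 passed without AAC animal 9, AAC animal 21, COMBO animal 18 or COMBO animal 54. Whether red cell RNA in animal 9 contributed to other differences was not tested.

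Glycolysis genes were higher in AAC in 10 of 22 cases, with none lower and a list median of 0.56, beside 5.27% of all tested genes that were higher. The summed level was highest in AAC animal 21 (7691 CPM) and lowest in COMBO animals 54 and 18 (3617 and 4045), while COMBO animal 16 (4950) lay within the AAC range. ALDOC, an aldolase, had 37.5, 102.1, 70.9 and 42.3 CPM in AAC and 36.9, 29.6 and 23.3 in COMBO (log2 difference 1.08, SE 0.30). PFKM, a subunit of phosphofructokinase, differed by 0.90, LDHA, lactate dehydrogenase, by 0.56 and HK1, hexokinase, by 0.66. Without animal 21 a single gene of the list passed, and without animal 18, without animal 54 or without both none did. In the list of fatty acid oxidation genes 4 of 27 passed, a count to be read against the 12.9% of all tested genes that were called. UCP2, a mitochondrial carrier of immune cells, and PDK4, which restrains entry of pyruvate into mitochondria, were higher in AAC (1.06 and 1.18), and the lipid droplet protein PLIN2 and the dehydrogenase ACADM were lower (-1.30 and -0.37). PLIN2 had 161 and 132 CPM in animals 18 and 54 and 42.2 in animal 16, within the AAC range of 31.98 to 61.1, and both PLIN2 and ACADM changed sign without animals 18 and 54. No gene of that list passed without animal 18 or without animal 54.

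Chaperone genes formed a mixed list. Of 26, 8 were lower in AAC and none higher, yet the list median was 0.01. Over all tested genes 7.62% were lower. HSP90AB1, the constitutive cytosolic chaperone, had 535, 705, 561 and 819 CPM in AAC and 814, 1984 and 2212 in COMBO (log2 difference -1.35, SE 0.26, FDR 0.001336 in edgeR). The mitochondrial chaperonins HSPD1 and HSPE1 differed by -0.53 and -0.65, and TRIB3, a pseudokinase of the integrated stress response, by -1.15. The inducible chaperone HSPA1A had 119.2 to 187 CPM in AAC and 128.1 to 203 in COMBO and did not pass (FDR 0.996). TRIB3 changed sign without animals 18 and 54 and no gene of the list passed. The 8 calls were 1 without animal 18, 2 without animal 54 or AAC animal 9, 3 without AAC animal 31 and 4 without AAC animal 21.

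Immediate early genes, which respond to cell activation within minutes, gave 3 lower and 1 higher of 23 (list median 0.16). Over all tested genes 7.62% were lower and 5.27% were higher. MYC, a regulator of growth and ribosome production, had 167, 189, 169 and 228 CPM in AAC and 298, 362 and 340 in COMBO, with INR between them at 214 to 288 (log2 difference -0.82, SE 0.18, FDR 0.003879 in edgeR). EGR3, a transcription factor of antigen receptor signaling, had 1.24 to 3.98 CPM in AAC and 7.08, 11.28 and 17.6 in COMBO (-2.02, SE 0.40), and IER2 differed by -0.50. KLF4, a factor of monocyte differentiation, was higher in AAC, at 33.01 to 62.3 CPM against 17.9 to 24.1. In all 4 genes the groups did not overlap, as in 1373 of all 2382 called genes. Without animals 18 and 54 the MYC difference was -0.67 and did not pass.

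Of 30 genes of inflammatory cytokines and NF-kB feedback, 5 passed. The NF-kB subunits NFKB1, NFKB2 and RELB were lower in AAC (-0.46, -0.57 and -0.35), and IL1R1, the interleukin 1 receptor, was higher (1.19). NFKB1 had 154 to 163 CPM in AAC and 181, 243 and 227 in COMBO, without overlap. The fifth, the chemokine CXCL3, was listed at 0 in all COMBO and INR steers and reached 0.34 CPM in AAC, so no fold is given. In the glucocorticoid list MAP3K6, FCGRT and PDK4 of 21 genes were higher in AAC (1.38, 0.82 and 1.18, list median 0.34). Beside both lists stands the 12.9% of all tested genes that were called. The 5 inflammatory calls became 1 without AAC animal 9, AAC animal 21 or COMBO animal 54, 2 without AAC animal 31 and 0 without COMBO animal 18, and the 3 glucocorticoid calls became 1 without AAC animal 21 or COMBO animal 54 and 0 without COMBO animal 18. Without both COMBO animals none of either list passed.

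Genes of trace mineral transport and use were called in both directions, and their counts are to be read against the 12.9% of all tested genes that were called. Of 22 metallothionein and zinc transport genes, 1 was lower and 2 were higher in AAC, with a list median of -0.11. SLC39A10, a zinc importer of B cells and macrophages, had 43.8, 29.8, 43.04 and 42.6 CPM in AAC and 51.1, 62.7 and 77.47 in COMBO, while INR had 55.3 to 73.9 (log2 difference -0.68, SE 0.17, FDR 0.009561 in edgeR). The importers SLC39A6 and SLC39A13 were higher in AAC by 0.58 and 0.33. The metallothionein MT2A, which buffers zinc and copper and is induced by them, had 2.98 to 3.54 CPM in AAC and 1.97, 4.53 and 4.44 in COMBO and did not pass (log2 difference -0.17, SE 0.43, FDR 0.86). The summed zinc list was 777 to 813 CPM in AAC, 782 to 832 in COMBO and 756 to 802 in INR.

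Of 21 copper genes 3 passed, with a list median of 0.02. The copper transporters SLC31A1 and SLC31A2 were higher in AAC (0.61 and 0.92), at 21.3 to 46.1 and 16.1 to 39.5 CPM in AAC against 16.1 to 28.5 and 10.5 to 17.5 in COMBO, and SCO1, a copper chaperone of cytochrome oxidase, was lower (-0.34). Of 17 cobalamin genes 4 passed in both directions. TCN2, the plasma carrier of cobalamin, had 44.9 to 111.8 CPM in AAC and 28.7 to 43.8 in COMBO (0.90), and PCCB, a subunit of propionyl-CoA carboxylase, was also higher (0.69). MMACHC, which processes cobalamin in the cytosol, and MTRR, which reactivates methionine synthase, were lower (-0.51 and -0.36). In each of these 4 the groups did not overlap, as in 1373 of all 2382 called genes. Of 36 selenoprotein and antioxidant genes GPX4, the lipid peroxide reductase, and SELENON were higher in AAC (0.78 and 0.94, list median 0.11). SELENOP, the selenium transport protein, had 67.30 to 99.8 CPM in AAC and 30.5 to 52.3 in COMBO, without overlap, and did not pass (FDR 0.14). Without animals 18 and 54 no gene of the zinc, copper, cobalamin or selenium lists passed. Without animal 18 alone 1 zinc gene and none of the other 3 lists passed, without animal 54 alone 1 copper and 1 cobalamin gene and none of the others, and without AAC animal 21 1 zinc and 2 copper genes and none of the others.

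In the platelet list F13A1, a subunit of coagulation factor XIII that monocytes also make, was higher (1.15, SE 0.36), and MMRN1, multimerin of platelets and endothelium, was lower, at 1.69 and 2.27 CPM in animals 18 and 54 and at most 0.12 in the other 5 (list of 21, median -0.26). Over all tested genes 12.9% were called. MMRN1 did not pass in limma with a correlation within animals (FDR 0.12) and changed sign without animals 18 and 54, and no gene of the list passed without AAC animal 21, AAC animal 31, COMBO animal 18 or COMBO animal 54. HDC, the histamine-forming enzyme of basophils and the call among 11 eosinophil and basophil genes, was at 0 in all COMBO libraries and at 0.07 to 0.13 CPM in AAC, which is near the detection floor of 3 counts, and no fold is given. HDC did not pass in limma (FDR 0.22) or with any 1 of the 7 animals left out. No gene passed among 18 cell cycle genes (smallest p: PLK1, FDR 0.35), 20 alpha-beta T cell markers (CD8A, the T cell coreceptor, FDR 0.104, with 57.6 to 103.4 CPM in AAC and 38.33 to 75.2 in COMBO), 9 gamma-delta T cell markers (WC1.3, of a multigene family, FDR 0.35) and 19 natural killer genes (CTSW, FDR 0.11). The same held for 17 class I processing genes (NLRC5, the class I activator, FDR 0.16), 19 clock genes (CRY2, a repressor of the clock, FDR 0.107), 21 cholesterol genes (NR1H3, the sterol receptor LXR alpha, FDR 0.123), 76 ribosomal protein genes (RPS7, FDR 0.272), 70 respiratory chain genes (NDUFC1, FDR 0.275) and 15 connective tissue genes (PDGFRB, at 0 in all COMBO animals, FDR 0.351). In 18 alternative settings CD8A and CRY2 each passed in 7, CTSW in 6, NR1H3 in 4, and PLK1, NLRC5 and RPS7 in 1 each. The medians of the ribosomal protein and respiratory chain lists were 0.16 and 0.02. Of 4 genes taken from the same comparison in healthy cattle, STAP1, a B cell adaptor, was lower in AAC (-0.97, FDR 0.029) and the uncharacterized LOC112442254 was higher (2.72), with 56.5 CPM in AAC animal 9 and at most 4.03 in the other 6 (INR 2.69 to 82.1), while SEC14L5 and MPIG6B did not pass.

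Both AAC pens were compared with each other and with COMBO. Between pen 2 and pen 8, with 2 animals each, 1 gene passed (0.00541% of the tested genes) and 1606 had an unadjusted p below 0.05 in edgeR. This gene was ZBTB26, a zinc finger factor, named after its values were seen. It was at 0 in both pen 2 animals and at 4.24 and 2.92 CPM in the pen 8 animals, with 4.12 to 9.56 in COMBO. Against COMBO, pen 2 alone gave 2511 calls and pen 8 alone 224. The sign was the same in both pens for 2375 of the 2382 genes, and 178 passed in both pens and in the group comparison with the same sign. The 2382 genes were chosen for the difference between these same AAC and COMBO animals, so the shared sign is no independent support. CXCL10 (-3.81 and -3.79), TCOF1 (-1.07 and -1.04) and the B cell gene FCRL1 (-2.24 and -2.05) differed about equally in pens 2 and 8, while CD163 (2.33 and 0.58) and SELENBP1 (3.19 and 1.20) differed more in pen 2, the pen of animal 21.

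Healthy AAC and COMBO steers of the same day were compared in the same way. The healthy AAC steers came from pens 2 and 8, as did the diseased ones, but the healthy COMBO steers came from pen 5 and the diseased COMBO steers from pen 6, so disease and pen cannot be told apart within COMBO. In the fit of all libraries, diseased and healthy, no gene passed between healthy AAC and healthy COMBO (0% of 18937, 1816 with an unadjusted p below 0.05), while 2911 passed in the diseased steers. The paper, which fitted its healthy cattle alone and matched glmmSeq with edgeR calls, did report genes that differed between these healthy groups at day 0. The absence of healthy calls here therefore belongs to this fit and is not a lack of any difference. The difference between the diseased and the healthy contrast was tested directly, and 3097 genes passed, of which 1798 (9.49%) had a lower and 1299 (6.86%) a higher value in the diseased steers. Of 15 B cell markers 14 passed this test, all lower, and 8 of 14 monocyte markers, all higher. The B cell sum was 2679 to 5393 CPM in healthy AAC and 1103 to 2741 in healthy COMBO, ranges that overlapped, and none of the 15 markers passed between the healthy groups (list median 0.87 on the log2 scale). For CD22 the difference between the contrasts was -3.12 (FDR 0.0007006 in edgeR). Of the 30 type I interferon genes 5 passed, and the interferon sum was 4751 to 8697 CPM in healthy AAC and 5715 to 15130 in healthy COMBO. Without COMBO animals 18 and 54 the count of 3097 became 27.

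The same 7 steers were followed at days 13, 28, 45 and 60. At day 13 the AAC and COMBO comparison gave 1096 calls (5.93%), at day 28 69 (0.373%), at day 45 8 (0.0433%) and at day 60 15 (0.0812%). Of the 15 connective tissue genes, 6 were called at day 13, all higher in AAC, beside 5.93% of all tested genes. Their list summed to 21.04 to 3196 CPM in AAC and 25.07 to 49.29 in COMBO at day 13. Whether such tissue RNA contributed to other day 13 calls was not tested. Of the day 0 calls, 334 were called again with the same sign at day 13, 54 at day 28, 7 at day 45 and 9 at day 60. With 1 animal left out these counts ranged from 31 (without AAC animal 21) to 273 (without AAC animal 41) at day 13, from 2 (without AAC animal 9) to 97 (without COMBO animal 16) at day 28, from 1 (without AAC animal 41) to 20 (without COMBO animal 16) at day 45 and from 1 (without AAC animal 9) to 80 (without COMBO animal 16) at day 60. One gene, P3H1, a collagen prolyl hydroxylase, was called with opposite signs at days 0 and 13 (0.26 and -0.34). These days share animals with day 0 and are not independent of it.

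Called on all 5 days were 2 genes. TBCE, a tubulin folding cofactor, differed by -1.11, -1.03, -1.27, -1.15 and -1.16 at days 0, 13, 28, 45 and 60 and had 15.5 to 16.7 CPM in AAC and 30.3, 50.2 and 25.03 in COMBO at day 0. MMP28, a matrix metalloproteinase, differed by -1.17, -1.48, -1.73, -1.37 and -1.32 and had 9.80 to 11.6 CPM in AAC and 28.61, 24.4 and 21.1 in COMBO at day 0. In both genes animal 16 lay with the other COMBO animals. KLHL14 (-1.66 at day 0), RCAN2, a calcineurin inhibitor (2.27), and WDR74, a ribosome assembly factor (-0.66), were called on 4 of the 5 days. These genes were picked after their values were seen.

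The B cell sum of each COMBO animal was above that of each AAC animal on every day. It was 1447 to 2569 CPM in AAC and 3367 to 3574 in COMBO at day 13, 1422 to 2439 and 3640 to 4634 at day 28, 1381 to 2667 and 3620 to 4228 at day 45, and 1493 to 2524 and 3441 to 3776 at day 60. INR sums were 2433 to 3821, 2422 to 4796, 2023 to 6586 and 2389 to 6664 CPM at days 13, 28, 45 and 60. On each of these days the COMBO sums lay within the INR range, and the AAC range began below it and ended within it. AAC animal 21 was the lowest of the 7 each day. Markers that passed included MS4A1, FCRL1 and EBF1 at day 13 and CD79A, CD79B, CD22 and EBF1 at day 28, and none of the 15 passed at days 45 and 60, with list medians of -0.80, -1.19, -0.998 and -0.75. The interferon sum had no such steady order, and of its 30 genes MX1, IFI44L and USP18 passed at day 13 and none later. Animals 18 and 54 had 7520 and 4062 CPM at day 13, when animal 16 had 32150. Animal 18 had 18970 and 23770 CPM at days 28 and 45 and 7147 at day 60. Each of the 3 COMBO animals thus had a sum of at least 31900 CPM on 1 day, while the highest AAC value on any day was the 8554 CPM of animal 41 at day 0.

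**Figure D5:**
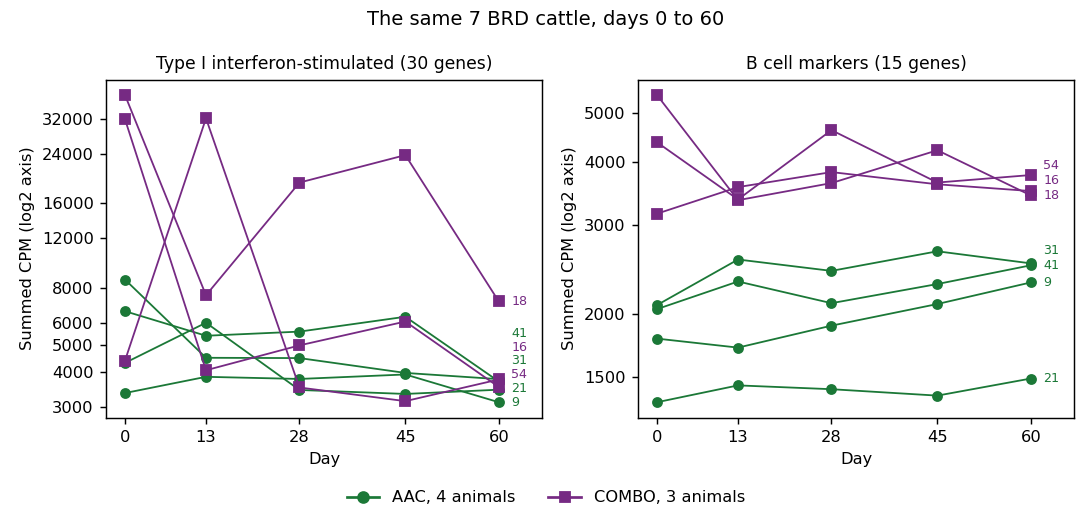
Summed CPM of the interferon-stimulated and B cell lists in each of the 7 steers at days 0, 13, 28, 45 and 60, on log2 axes, with 1 line per animal. The B cell lines of the groups never cross, while the interferon lines of the COMBO animals peak on different days, at day 0 for animals 18 and 54 and at day 13 for animal 16 (32150 CPM).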

How the data were processed

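Whole blood RNA of 70 diseased and 59 healthy libraries had been sequenced, and the values deposited by the authors are read counts per gene, derived by them from StringTie coverage after trimming with Trimmomatic and alignment with HISAT2 to the bovine genome. The values of a gene estimated this way can be affected by near-identical copies, and the strand setting was not stated. Here the counts were tested with edgeR 4.0.16 (R 4.3.3): genes were kept by filterByExpr (18477 of 32395), scaled by TMM and fitted by the quasi-likelihood model with a group per program and day over the 70 libraries of diseased steers. AAC was set against COMBO at day 0 with a Benjamini-Hochberg FDR below 0.10. Log2 differences are AAC minus COMBO from the edgeR fit with its default prior count, and CPM values are TMM-scaled. The log2 CPM of the principal components and of the correlations between libraries had a prior count of 2. The exact permutation test of a single gene, with 4 against 3 animals, could not go below p = 0.0571. The 5 libraries of a steer were treated as independent although same-steer deviations correlated (median 0.382 against -0.0215 between steers), and a limma 3.58.1 alternative with a correlation within animals (0.315) and a DESeq2 1.42.0 alternative were run. No library pair matched within sampling noise. Genes named were the 12 of smallest p in each direction, the called members of each of 34 lists (at most 4 of smallest p, or the 1 of smallest p where none passed) and 4 genes of the healthy comparison, and others are said to be added. The programs, the members and the lists were chosen with earlier results of these data known. Scripts were tested on simulated data. One marker gene is not reported here by name.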

Additional observations from a re-analysis of the deposited data

Results flagged for a closer look

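In AAC, 16 of 141 sets of 4 values held 1 animal far from the other 3 by Dixon's criterion, which chance gives in about 1 of 20 sets. Animal 21 stood apart in LAPTM4B (27.9 CPM, high), SLC39A10 (29.8, low), BLVRA (22.49, high) and in the summed class II presentation (10900 CPM, high) and respiratory chain (6280, high) lists. Animal 41 stood apart in CRTC1 (28.0 CPM), WC1.3 (563), RTP4 (51.4), IFI44L (192), NLRC5 (488) and the gamma-delta T cell list (1319), all high, and in the copper list (529.6), low. Animal 9 was high in ARG1 (14.1 CPM), HBA1 (4374), LOC112442254 (56.5) and the erythroid list (7626). The criterion was applied to groups of 4 or more, so COMBO, with 3 animals, was not examined with it.

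All 24 genes of smallest p at day 0 also differed between diseased and healthy steers in their AAC minus COMBO difference by a direct test in edgeR, as did 81 of the named genes. They were chosen for their difference in the diseased steers, so this count is no independent support. The diseased minus healthy values on the log2 scale were 2.46 for COL7A1, 1.22 for ND5, 1.19 for SLC25A10, 0.81 for AP2A1, 0.92 for NPHP4, 0.75 for MPV17, 1.04 for DPP7, 1.69 for TNFSF12, 0.95 for CYB5A, 2.72 for SELENBP1, 2.27 for LAPTM4B and 0.80 for CSAD. They were -1.34 for TCOF1, -1.36 for RPF2, -4.00 for H4, -0.94 for CRTC1, -3.57 for HIST1H1D, -1.60 for NOL6, -1.11 for PWP2, -2.995 for HIST1H2BD, -2.56 for XKRX, -1.30 for KAT2A, -1.58 for STS and -3.05 for FCRL1.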

How the results depend on the processing

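The 2382 calls between AAC and COMBO were 2821 with DESeq2, 2312 with RLE factors, 2307 in limma with a correlation within animals, 2377 and 1745 under other filters and 2911 with healthy libraries in the fit. They were 1405 at an FDR of 0.05, 1360 with the 14 diseased day 0 libraries, 3 with the 7 libraries alone and 224 for AAC pen 8 against COMBO, and 275 (without COMBO animal 18) to 3590 (without COMBO animal 16) with 1 animal left out. Leaving out both animals 18 and 54, chosen after seeing the data, gave 25, and reversed PLK1 (-0.051), MMRN1 (0.31), RTP4 (0.20), IFI44L (0.27), USP18 (0.28), CXCL10 (0.58), GBP5 (0.85), GBP4 (0.97), NLRC5 (0.068), TRIB3 (0.064), PLIN2 (0.11) and ACADM (0.045). With 1 animal left out, SEC14L5 ranged from -0.80 to 0.017 and MPIG6B from -1.05 to 0.031, both reversed without animal 18, and neither had passed. The pen comparison gave 0 calls at an FDR of 0.05. The 3097 differences between diseased and healthy steers were 3446 with DESeq2, 1110 with 15 day 0 libraries, 27 without animals 18 and 54 and 1207 (without diseased COMBO animal 18) to 4298 with 1 animal left out, and 1768 without diseased COMBO animal 54, 1478 without healthy AAC replicate 3 and 1683 without healthy COMBO replicate 2. With 1 animal left out, calls shared with day 0 ranged from 31 (without AAC animal 21) to 273 at day 13, 2 (without AAC animal 9) to 97 (without COMBO animal 16) at day 28, 1 (without AAC animal 41) to 20 (without COMBO animal 16) at day 45 and 1 (without AAC animal 9) to 80 (without COMBO animal 16) at day 60. The cause was not tested. No paired analysis was possible because each animal belongs to 1 program and pen, and replicate numbers do not link animals across programs.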
